A study of Mus musculus with 162 samples.

Results

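The tissue kallikreins Klk5, Klk6, Klk7, Klk8, Klk9, Klk10, Klk11, Klk12, Klk13 and Klk14 are secreted serine proteases, several of them known from the upper epidermis. The 10 genes were taken by their mouse symbols from the 46078 Ensembl genes counted in each library, all 10 were found, and all 10 passed the minimum of 10 counts in every skin comparison. They were followed by RNA-seq in mice treated with MC903, a vitamin D analogue (calcipotriol) used to raise atopic dermatitis-like inflammation, or with ethanol, its vehicle. Of 162 libraries 144 were used: 61 of cheek skin, 56 of trigeminal ganglion, which holds the sensory neurons of the face, and 27 of spinal cord.

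The mice were 8 to 12 weeks old. The cheek received 20 µL of 0.2 mM MC903 or ethanol once per day, and mice used for thoracic spinal cord received 40 µL on the back. Skin of wild-type C57BL/6 mice with no injection was taken at day 1 (6 hours after the first treatment; 4 MC903 and 4 ethanol libraries), day 2 (3 and 2), day 5 (3 and 3) and day 8 (5 and 6). Wild-type day 8 skin came also from mice injected with 250 µg of anti-Gr1, an antibody used to deplete neutrophils (4 and 4), or with PBS, its vehicle (2 and 3). Skin of BLT1.KO mice, named for the leukotriene B4 receptor encoded by Ltb4r1, was taken at day 8 (3 and 3). Skin of TSLPR.KO mice, a Crlf2 knock-out that lacks the receptor for the cytokine TSLP, was taken at day 8 (3 and 2) and day 12 (4 and 3). Each knockout was compared with ethanol skin of its own genotype. Replicates are libraries labelled as separate samples, so the p-values cover the spread between those samples. Wild-type day 12 libraries were left out, since 3 of 9 labelled skin and 7 of 9 labelled ganglion held the keratin Krt1 at 246.5 CPM (counts scaled to the library total) or more, the lowest level in the skin libraries used.

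Epidermal kallikreins are made as inactive precursors by keratinocytes of the upper living layers and are released into the stratum corneum. There Klk5, a trypsin-like enzyme, and Klk7, a chymotrypsin-like one, cut the corneodesmosome proteins that hold dead cells together, and so let the surface shed. The inhibitor LEKTI, encoded by Spink5, restrains them, and its loss in Netherton syndrome leaves the barrier open. Trypsin-like members can also cut the receptor PAR2, encoded by F2rl1, on keratinocytes and nerve endings. Klk8 (neuropsin) and Klk6 (neurosin) are known from the brain as well, Klk6 chiefly from oligodendrocytes, the myelin-forming cells.

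The members lie side by side in one cluster on chromosome 7, all on the plus strand, between 43690418 and 43851181 of GRCm38 (160.764 kb). In the direction of transcription the order is Klk14, Klk13, Klk12, Klk11, Klk10, Klk9, Klk8, Klk7, Klk6 and Klk5. The stretches before the start sites of the most and the least changed members are shown because MC903 acts through the vitamin D receptor, a factor that binds pairs of a hexamer spaced 3 bases apart. The sequences are RefSeq's (GRCm38.p6, plus strand, printed without bases in annotated exons). Capitals mark half-sites on either strand, that is the hexamer AGGTCA, its variant AGTTCA, the hexamer GGGTCA or its variant GGTTCA.
Klk13, chr7:43712317-43712566: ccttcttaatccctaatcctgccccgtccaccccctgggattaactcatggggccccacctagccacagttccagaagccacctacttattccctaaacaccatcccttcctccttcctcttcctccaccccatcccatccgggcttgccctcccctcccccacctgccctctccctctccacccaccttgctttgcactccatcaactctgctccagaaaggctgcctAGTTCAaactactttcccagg
Klk6, first start, chr7:43824294-43824498: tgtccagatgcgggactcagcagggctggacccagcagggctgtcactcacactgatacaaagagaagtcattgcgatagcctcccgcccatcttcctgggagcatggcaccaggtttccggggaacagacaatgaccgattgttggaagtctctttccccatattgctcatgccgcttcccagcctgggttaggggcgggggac
Klk6, second start, chr7:43825200-43825394: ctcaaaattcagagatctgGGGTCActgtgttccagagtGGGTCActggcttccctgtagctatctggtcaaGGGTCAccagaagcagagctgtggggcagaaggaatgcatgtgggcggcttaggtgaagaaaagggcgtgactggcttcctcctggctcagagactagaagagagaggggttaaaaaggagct
Klk5, chr7:43842068-43842268: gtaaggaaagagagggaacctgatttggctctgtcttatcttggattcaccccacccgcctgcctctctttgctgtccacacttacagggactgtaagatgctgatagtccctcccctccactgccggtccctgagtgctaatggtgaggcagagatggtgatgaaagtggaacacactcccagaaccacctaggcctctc
Klk14, chr7:43690168-43690417: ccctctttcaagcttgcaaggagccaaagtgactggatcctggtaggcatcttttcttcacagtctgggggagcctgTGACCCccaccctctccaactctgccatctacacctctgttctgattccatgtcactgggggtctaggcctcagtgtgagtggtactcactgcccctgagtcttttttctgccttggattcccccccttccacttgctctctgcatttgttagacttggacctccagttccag

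The second start of Klk6 had 3 copies of GGGTCA, and 3 or more half-sites of any kind stood in 2.93% of 32851 windows of 300 bases around all start sites. Klk13 had 1 half-site, as did Klk12, Klk8 and Klk14, which was called in none of the 9 skin comparisons. Klk5, Klk7, Klk9 and Klk10 had none in their windows, and any half-site stood in 43.7% of all windows. A pair 3 bases apart was in no member's window and in 0.0396% of all windows. Neither TGANTCA (in 7.81% of all windows) nor TATAAA (in 13.6%), both searched on either strand, was in a member's window. Such matches describe letters and not binding, and these windows leave out distant elements.

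Several properties of the libraries bear on the values that follow. Counts on genes ranged from 17431296 to 67342879 in the 61 skin libraries. Cyp24a1, the vitamin D-induced hydroxylase, lay between 1657 and 6748 CPM with MC903 and between 0.213 and 31.4 with ethanol, which matched the treatment labels. Crlf2 was at 0.0691 to 1.34 CPM in TSLPR.KO skin and 2.24 to 15.4 elsewhere. Ltb4r1 was at 2.33 to 15.1 CPM in BLT1.KO skin and 1.45 to 77.6 elsewhere, so its counts did not set BLT1.KO apart. Markers of salivary gland (6 genes) summed to 16132 to 268321 CPM in every ethanol library of day 5, anti-Gr1 and TSLPR.KO day 12 skin, against at most 31.5 in any library of uninjected wild-type day 8. Bulk RNA cannot tell fewer keratinocytes in a sample from less RNA of a gene in each of them.

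In ethanol-treated skin the members differed widely in level. Per kb of exon, ethanol skin of uninjected wild-type mice at day 8 held 281 ± 37.6 CPM of Klk7 (mean ± SD, n = 6) and 161 ± 39.9 of Klk10, followed by Klk5 at 32.04 ± 3.10. Klk8 (19.6 ± 5.06), Klk6 (15.9 ± 3.13) and Klk11 (10.3 ± 1.18) came next, and the ranges of Klk8 and Klk6 overlapped. Klk9 stood at 7.87 ± 1.36 and Klk13 at 3.91 ± 0.607. Klk14 (1.36 ± 0.647) and Klk12 (1.34 ± 0.430) were lowest and could not be told apart. With MC903 at day 8 (n = 5) Klk7 stayed first at 792 ± 78.7 CPM per kb. Klk6 moved from the fifth place to the second (227 ± 46.2), with a range that overlapped those of Klk10 (188 ± 36.3) and Klk9 (181 ± 53.9). Klk5 moved from the third place to the eighth (25.6 ± 2.25).

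**Figure D1:**
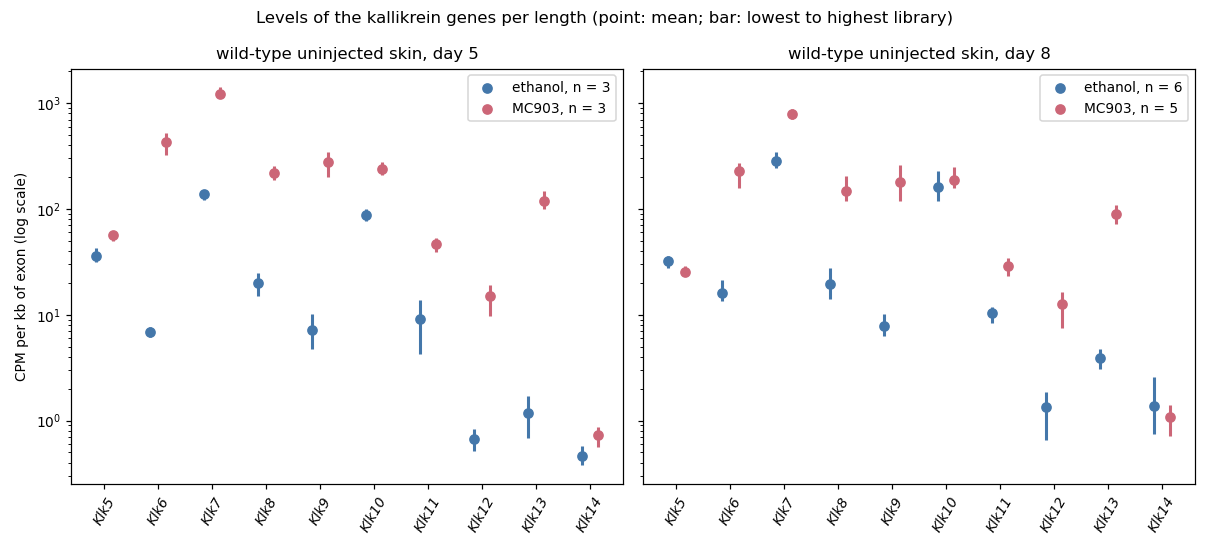
Level of each kallikrein gene in uninjected wild-type skin at day 5 and day 8 in CPM per kb of exon (log axis); points are means, bars run from the lowest to the highest library, blue is ethanol and red is MC903. Klk7 leads in all 4 groups, while the red points of Klk6, Klk9 and Klk13 stand far above the blue ones and those of Klk5 and Klk14 do not.

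Added together, the 10 genes stood at 502 ± 61.5 CPM in day 5 ethanol skin and at 4489 ± 688 CPM with MC903 (n = 3 each). Klk6 held 2.11% of that sum with ethanol and 14.4% with MC903, whereas Klk10 held 24.2% and then 7.29%. At day 8 the sum was 2895 ± 322 CPM with MC903 (n = 5), and its lowest library (2469.9) lay above the highest ethanol library (1108).

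The first comparison asked which members MC903 had changed 6 hours after a single dose. Klk13 was at 3.69, 6.25, 6.39 and 6.85 CPM in the ethanol libraries and at 43.7, 52.8, 56.3 and 61.9 with MC903. Klk6 was at 15.8, 17.3, 19.2 and 21.4 CPM with ethanol and at 72.96, 81.05, 96.4 and 109 with MC903. For neither gene did the groups overlap, and 7.48% of all genes tested likewise had every MC903 library above every ethanol one. In all, 8 of 10 members were higher with MC903 in edgeR's quasi-likelihood test with Benjamini-Hochberg adjustment, while 5.51% of all genes tested were. The log2 fold changes were 3.18 ± 0.14 for Klk13, 2.24 ± 0.15 for Klk6, 1.28 ± 0.31 for Klk12 and 1.24 ± 0.15 for Klk9. Klk8, Klk7, Klk11 and Klk10 were between 0.55 and 0.82, and the groups of Klk8 and Klk11 overlapped. Klk5 (-0.06 ± 0.11) and Klk14 (0.83 ± 0.27) did not pass. In the 8 fits that left out a library each, Klk8 kept its call in 3 and Klk12 in 4, and the other 6 kept theirs in all. At this day 2 of 4 ethanol libraries held over 1000 CPM of salivary gland markers (up to 98087). Without those libraries, a setting chosen after seeing the data, 3 members passed: Klk13 (3.10), Klk6 (2.16) and Klk9 (1.17). Of all genes 743 of 23910 passed there. With library totals in place of TMM scaling 4 members passed, and 986 of 24749 genes in all.

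At day 2, with 3 MC903 and 2 ethanol libraries, no member passed, and neither did any other gene (0% of 24580, of which 1191 had an unadjusted p under 0.05). Klk13 was at 3.04 and 4.32 CPM with ethanol and at 48.3, 80.1 and 117.6 with MC903. Klk6 was at 7.64 and 28.9 CPM with ethanol and at 132.8, 180.1 and 301 with MC903. The groups did not overlap, MC903 being higher, for 7 members (Klk6 to Klk9 and Klk11 to Klk13), a pattern that 10.6% of all genes tested had. Their log2 fold changes ran from 1.60 (Klk7) to 4.45 (Klk13). DESeq2's Wald test called 7 members (and 279 of 24580 genes in all), and so did a fit blocked by replicate number (876 genes in all). Same-numbered libraries were not found to be paired at this day, so the block rests on a number alone. MC903 replicate 3 held sensory neuron markers at 1119.6 CPM and oligodendrocyte markers at 2353 CPM, against 12.9 and 13.4, and 86.1 and 99.0, in the other MC903 libraries, and without it 1 member passed.

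At day 5 the mean levels with MC903 of all members but Klk14 were the highest of the 4 uninjected days, as a description. Klk6 was at 9.33, 10.3 and 11.5 CPM in the ethanol libraries and at 487, 671 and 790.5 with MC903. Klk13 was at 1.58, 2.65 and 3.90 CPM with ethanol and at 229, 253 and 339 with MC903. Klk7, already the most abundant member, was at 232, 277 and 284 CPM with ethanol and at 2164, 2166 and 2667 with MC903. None of these groups overlapped, and 20.7% of all genes tested likewise had every MC903 library above every ethanol one. Altogether 8 members rose, against 8.15% of all genes tested. The fold changes fell into an order: Klk13 at 88.9-fold (log2 6.47 ± 0.50), Klk6 at 56.7-fold (5.83 ± 0.34), Klk9 at 37.4-fold (5.23 ± 0.32) and Klk12 at 20.8-fold (4.38 ± 0.31). Klk8 (10.4-fold), Klk7 (8.22-fold), Klk11 (4.91-fold) and Klk10 (2.51-fold) followed. Klk5 was at 41.9, 43.7 and 57.6 CPM with ethanol and at 66.5, 77.3 and 81.3 with MC903, without overlap, but missed the threshold (0.55 ± 0.18, adjusted p = 0.077). Every ethanol library of this day held salivary gland markers (23693 to 55881 CPM), as did 1 MC903 library, and their part in the values was not tested.

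At day 8 no library of the uninjected wild-type mice held salivary gland markers above 31.5 CPM, and Klk6, Klk7, Klk8, Klk9, Klk11, Klk12 and Klk13 rose (12.2% of all genes did). Klk6 ranged from 20.3 to 32.02 (median 21.96) CPM with ethanol and was at 241, 309, 355, 400.5 and 410.2 with MC903. Klk9 ranged from 9.23 to 15.1 (median 11.3) CPM with ethanol and was at 177, 208, 281, 289.9 and 381 with MC903. Both genes separated the groups without overlap, as 6.95% of all genes tested did with MC903 higher. The log2 fold changes were 4.48 ± 0.11 for Klk13, 4.46 ± 0.17 for Klk9, 3.79 ± 0.14 for Klk6, 3.15 ± 0.20 for Klk12 and 2.97 ± 0.19 for Klk8. Klk11 (1.499 ± 0.12) and Klk7 (1.49 ± 0.15) moved less. Klk10 did not pass (0.24 ± 0.19), nor did Klk14 (-0.34 ± 0.32). Klk5 fell by 0.33 on the log2 scale (adjusted p = 0.0485; 11.2% of all genes fell), from 36.7 to 47.9 CPM with ethanol to 31.97 to 38.8 with MC903, so that the groups overlapped. The labels of this day have titles of 2 styles, taken as cohorts A (3 MC903 and 3 ethanol libraries) and B (2 and 3). In cohort A the titles repeat replicate number 1 with MC903 and 3 with ethanol under different library names. These were taken as separate samples. The 7 rises were called in each cohort alone, and the call of Klk5 in neither, nor in 8 of 11 fits that left out a library.

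**Figure D2:**
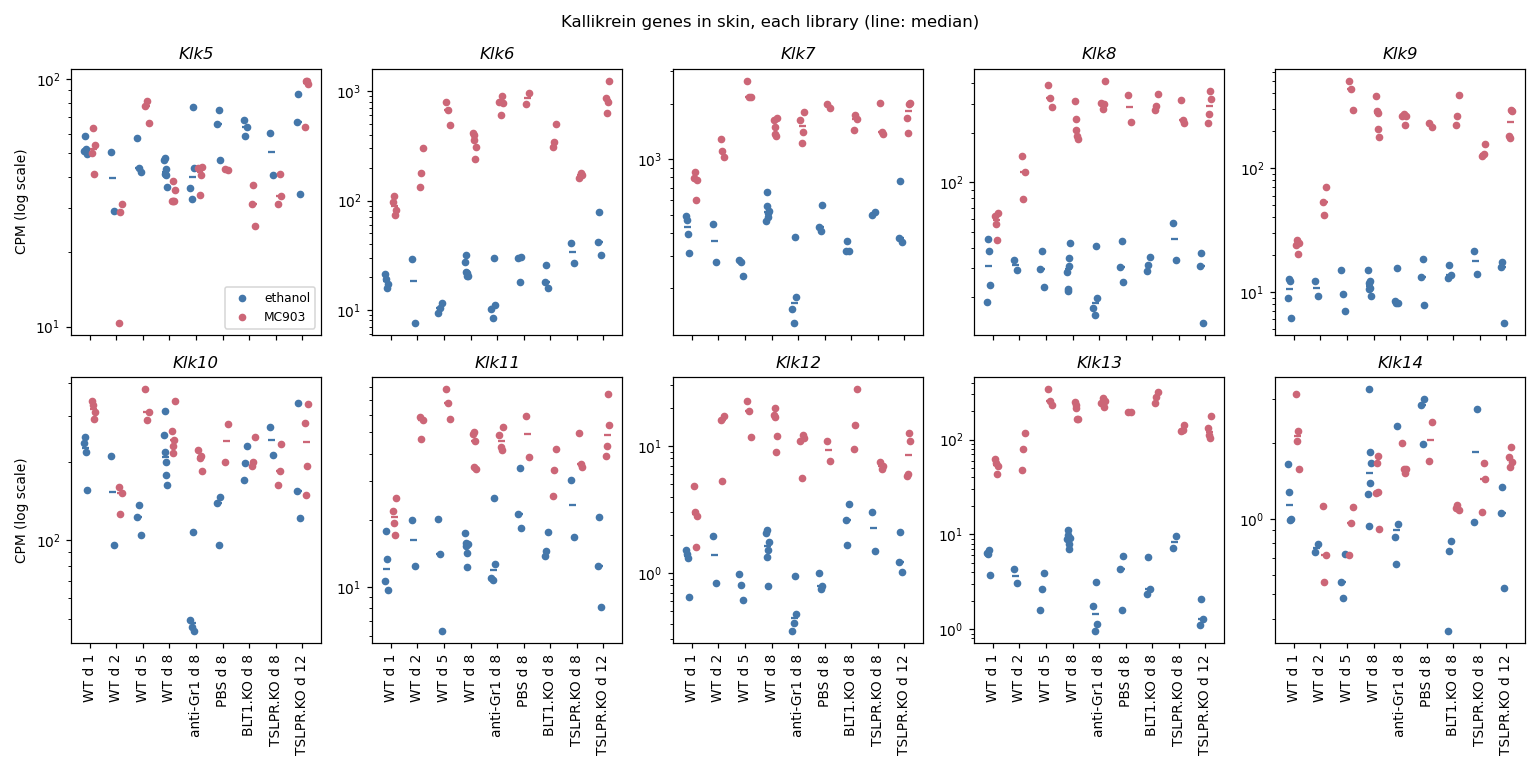
CPM of each kallikrein gene (log axis) in every skin library, ethanol blue and MC903 red, by day, injection and genotype; short lines mark medians. The red and blue clouds part for Klk6, Klk7, Klk8, Klk9, Klk12 and Klk13 in every condition apart from Klk8 at day 1, and overlap in most conditions for Klk5, Klk10 and Klk14.

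Position in the cluster did not order the effects. Klk13 and Klk6, with the largest fold changes at day 5, start 22.1 and 134.1 kb after the start of Klk14, and each has a neighbour that did not pass (Klk14 upstream of Klk13, Klk5 downstream of Klk6). Klk10, the least changed of the inner members, lies next to Klk9, one of the most changed (starts at 90.6 and 101.5 kb). Exons of Klk8 and Klk14 share sequence with a gene on the other strand, 2310002F09Rik (24.8% of the exonic bases of Klk8 and 22.6% of those of Klk14). Whether the counting used strand is not given in the sources used here, so reads there cannot be told apart.

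**Figure D3:**
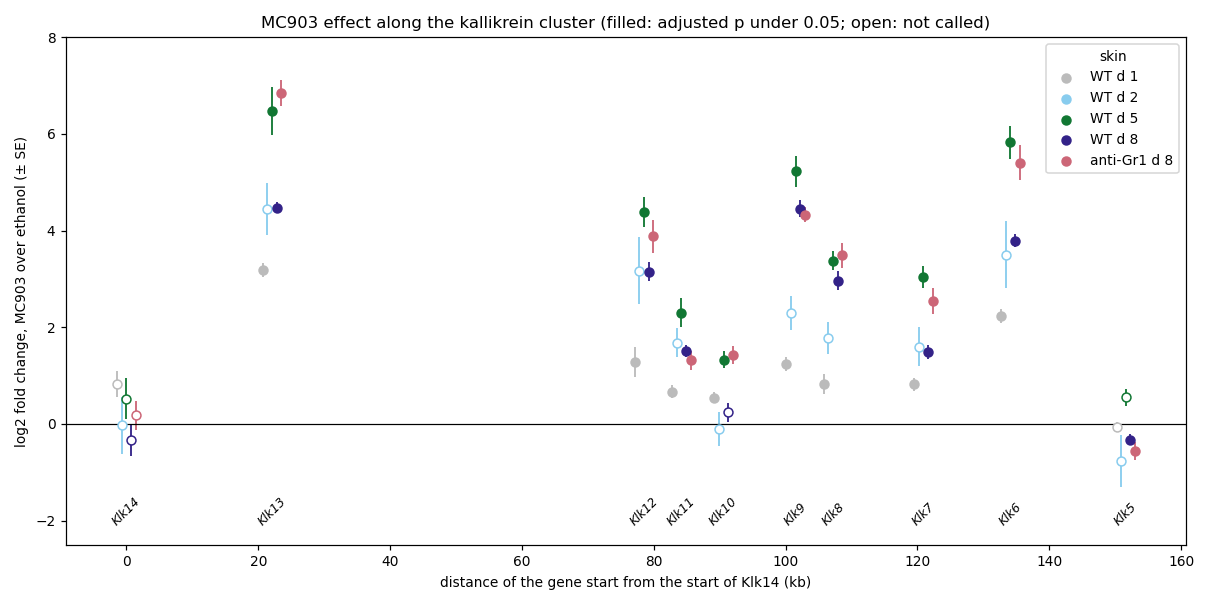
Log2 fold change of MC903 over ethanol (± SE) for the 10 genes by the distance of their start from the start of Klk14 in kb, for uninjected wild-type skin at days 1, 2, 5 and 8 and anti-Gr1 skin at day 8; filled points passed an adjusted p under 0.05 and open points did not. Klk13 and Klk6 reach the highest points and the outermost genes, Klk14 and Klk5, lie within 1 log2 unit of 0.

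The change of the MC903 effect with time was tested in one fit over the uninjected wild-type libraries. Between day 1 and day 5 the effect grew for 7 members (3.35% of all genes). Klk9 gained 3.96 ± 0.33 log2 units, Klk6 3.56 ± 0.43, Klk13 3.27 ± 0.41 and Klk12 3.07 ± 0.53, with Klk8, Klk7 and Klk11 between 1.61 and 2.53. Between day 1 and day 8 the gain was again called for 7 members (7.25% of all genes), at 3.23 ± 0.28 for Klk9, 2.16 ± 0.29 for Klk8, 1.88 ± 0.44 for Klk12, 1.57 ± 0.36 for Klk6 and 1.31 ± 0.34 for Klk13. With day 8 cohort B alone the gain stayed called for Klk9 (2.92 ± 0.33) and Klk8 (1.58 ± 0.31) only. From day 5 to day 8 the effect shrank for Klk6 (-1.99 ± 0.40), Klk13 (-1.96 ± 0.38) and Klk7 (-1.501 ± 0.23), where 0.665% of all genes shrank. No member's shrinkage was called with cohort B alone. These contrasts share the libraries of each day. Mean ethanol levels differed between day 5 and day 8 (2.71 and 8.98 CPM for Klk13, 10.4 and 24.1 for Klk6, 264 and 533 for Klk7). With MC903 the means were 274 and 205 CPM for Klk13, 649 and 343 for Klk6, and 2332 and 1501 for Klk7. All 3 ethanol libraries of day 5 held over 1000 CPM of salivary gland markers, and none of day 8 did. The part of this RNA in the contrasts was not tested.

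The anti-Gr1 comparison asked whether the members still rose at day 8 in mice injected with the antibody. Neutrophil markers (5 genes) summed to 28.7 to 36.01 CPM in its MC903 libraries and 25.6 to 61.8 in those of uninjected mice. With ethanol they summed to 4.26 to 9.65 and 7.22 to 12.96, so the ranges of these conditions overlapped. In PBS-injected mice they summed to 43.6 and 51.3 CPM with MC903, above every anti-Gr1 library, and to 7.90, 7.91 and 11.9 with ethanol. These differences were not tested. Such sums do not count cells, so they do not show whether depletion worked. By flow cytometry the paper reports that the antibody lowered neutrophil numbers in skin and blood. Klk13 was at 0.951, 1.13, 1.74 and 3.16 CPM with ethanol and at 222, 246, 254 and 272 with MC903. Klk6 was at 8.48, 10.2, 10.96 and 29.96 CPM with ethanol and at 599, 775, 791 and 904 with MC903. For both, all 4 MC903 libraries lay above every ethanol one, as for 22.4% of all genes tested. In all, 8 members rose (15.1% of all genes did), up to 115.8-fold for Klk13 (log2 6.86 ± 0.27) and 42.4-fold for Klk6 (5.41 ± 0.35). Klk9 (4.33 ± 0.16), Klk12 (3.88 ± 0.34), Klk8 (3.48 ± 0.25), Klk7 (2.55 ± 0.27) and Klk11 (1.31 ± 0.19) were called as well. Klk10, not called at day 8 without injection, was at 44.8, 46.4, 49.5 and 108 CPM with ethanol and at 185, 207, 210.2 and 221 with MC903 (1.42 ± 0.18). Klk5 fell by 0.56 on the log2 scale (adjusted p = 0.0451; 17.5% of all genes fell), a call lost in 6 of 8 fits that left out a library and with library totals in place of TMM. The ethanol libraries of this condition held 39361 to 268321 CPM of salivary gland markers and the MC903 libraries 18.2 to 9324. Ethanol replicate 3 had the least of them and the highest CPM of every member among the ethanol libraries. The part of this RNA in the fold changes was not tested. Without TMM scaling the median over all genes moved by 0.355 on the log2 scale, and 0.185 in TSLPR.KO day 12.

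The MC903 effect was larger in anti-Gr1 than in uninjected wild-type skin for Klk13 (2.39 ± 0.23, adjusted p = 3.82e-05), Klk6 (1.63 ± 0.31, 0.00744), Klk10 (1.19 ± 0.30, 0.0277) and Klk7 (1.07 ± 0.29, 0.0413), where 1.2% of all genes had a larger effect. For Klk13 the MC903 libraries of both conditions lay at like levels (222 to 272 and 166 to 248 CPM), and it was the ethanol libraries that stood apart (0.951 to 3.16 and 7.09 to 11.002 CPM). With cohort B alone Klk13 stayed called (2.45 ± 0.30) and the others did not. Against PBS-injected mice, the injected control, no member's difference was called (0.00374% of all genes had a larger effect), with Klk13 at 1.23 ± 0.51 (adjusted p = 0.425) and Klk6 at 0.37 ± 0.47 (0.82). The PBS group had 2 MC903 libraries. The labels give no preparation batch, so injection cannot be told apart from differences of preparation in these contrasts.

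In PBS-injected mice 6 members rose (3.26% of all genes). Klk6 was at 18.1, 30.1 and 30.7 CPM with ethanol and at 761 and 970.1 with MC903, and Klk13 was at 1.59, 4.30 and 5.93 with ethanol and at 194 and 196 with MC903. The groups did not overlap, as for 20.1% of all genes tested with MC903 higher. The log2 fold changes were 5.08 ± 0.33 and 5.66 ± 0.52. Klk9 (4.11 ± 0.36), Klk12 (3.47 ± 0.29), Klk8 (3.15 ± 0.30) and Klk7 (2.10 ± 0.25) also rose. With ethanol replicate 1 left out 2 members were called, and with the MC903 library that held salivary gland markers (9516 CPM) left out, which leaves 1 MC903 library that is assumed to vary like the ethanol libraries, 5 were. Klk7 kept its call in 2 of 5 fits that left out a library. No member's difference from the effect in uninjected mice was called (0.0146% of all genes had a larger effect), with Klk6 at 1.29 ± 0.27 (adjusted p = 0.471).

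In BLT1.KO skin, whose libraries held at most 56.3 CPM of salivary gland markers, 7 members rose (14.1% of all genes). Klk13 was at 2.33, 2.63 and 5.75 CPM with ethanol and at 244, 281 and 318 with MC903 (log2 6.28 ± 0.39). Klk6 was at 15.8, 17.8 and 25.96 CPM with ethanol and at 308, 344 and 497 with MC903 (4.25 ± 0.28). Klk9 (4.31 ± 0.26), Klk8 (3.22 ± 0.18), Klk12 (2.72 ± 0.46), Klk7 (2.25 ± 0.17) and Klk11 (1.12 ± 0.22) rose too. Klk5 was at 58.8, 63.6 and 68.2 CPM with ethanol and at 25.6, 31.1 and 37.1 with MC903, and fell by 1.06 ± 0.16 on the log2 scale (adjusted p = 0.00167; 14.6% of all genes fell) with every MC903 library below every ethanol one. The effect was larger than in uninjected wild-type skin for Klk13 (1.85 ± 0.30) and Klk7 (0.80 ± 0.21), as for 4.35% of all genes, and lower for Klk5 (-0.68 ± 0.19), as for 2.6%. With cohort B alone Klk13 (1.95 ± 0.41) and Klk8 (0.88 ± 0.22) were called, and Klk7 and Klk5 were not. The ethanol skin of the 2 genotypes differed in other markers: hair follicle markers summed to 58.3 to 1116 CPM in BLT1.KO and 13082 to 61967 in uninjected wild-type mice, and skeletal muscle markers to 17923 to 30663 and 3006 to 14179.8. Their part in the differences of effect was not tested.

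In TSLPR.KO skin at day 8, also without salivary gland markers (at most 44.8 CPM), 6 members were called higher (1.3% of all genes). Klk13 was at 7.19 and 9.57 CPM with ethanol and at 124.5, 127.7 and 144 with MC903 (log2 3.99 ± 0.27). Klk6 was at 26.9 and 40.7 CPM with ethanol and at 162, 169.9 and 177 with MC903 (2.36 ± 0.26). Every MC903 library of uninjected wild-type mice at day 8 (241 CPM and above) exceeded those Klk6 values. Klk9 (2.99 ± 0.27), Klk8 (2.56 ± 0.29), Klk12 (1.67 ± 0.34) and Klk7 (1.66 ± 0.31) were called too, and Klk11 did not pass (0.79 ± 0.28, adjusted p = 0.214). With 1 library left out, Klk12 was called in 1 of 5 fits and Klk7 in none of them, and 4 to 5 members were called in all. The Klk6 effect was smaller than in uninjected wild-type skin by 1.40 ± 0.23 log2 units (adjusted p = 0.0214), as for 0.166% of all genes, and Klk9 missed the threshold (-1.43 ± 0.28, adjusted p = 0.0519). With cohort B alone neither was called. At day 12, 7 members rose (5.41% of all genes), and Klk6 was at 31.9, 41.6 and 79.1 CPM with ethanol and at 631, 795, 864 and 1248 with MC903 (4.01 ± 0.34). Klk13 was at 1.10, 1.28 and 2.09 CPM with ethanol and at 104, 111, 131.7 and 179 with MC903 (6.31 ± 0.31). No difference of effect between day 12 and day 8 was called for any gene. All 7 libraries of day 12 held salivary gland markers (7664 CPM or more). The contrasts with uninjected wild-type skin in this and the preceding paragraphs share its libraries. In them genotype or injection cannot be told apart from differences of library preparation, which the labels do not give.

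**Figure D4:**
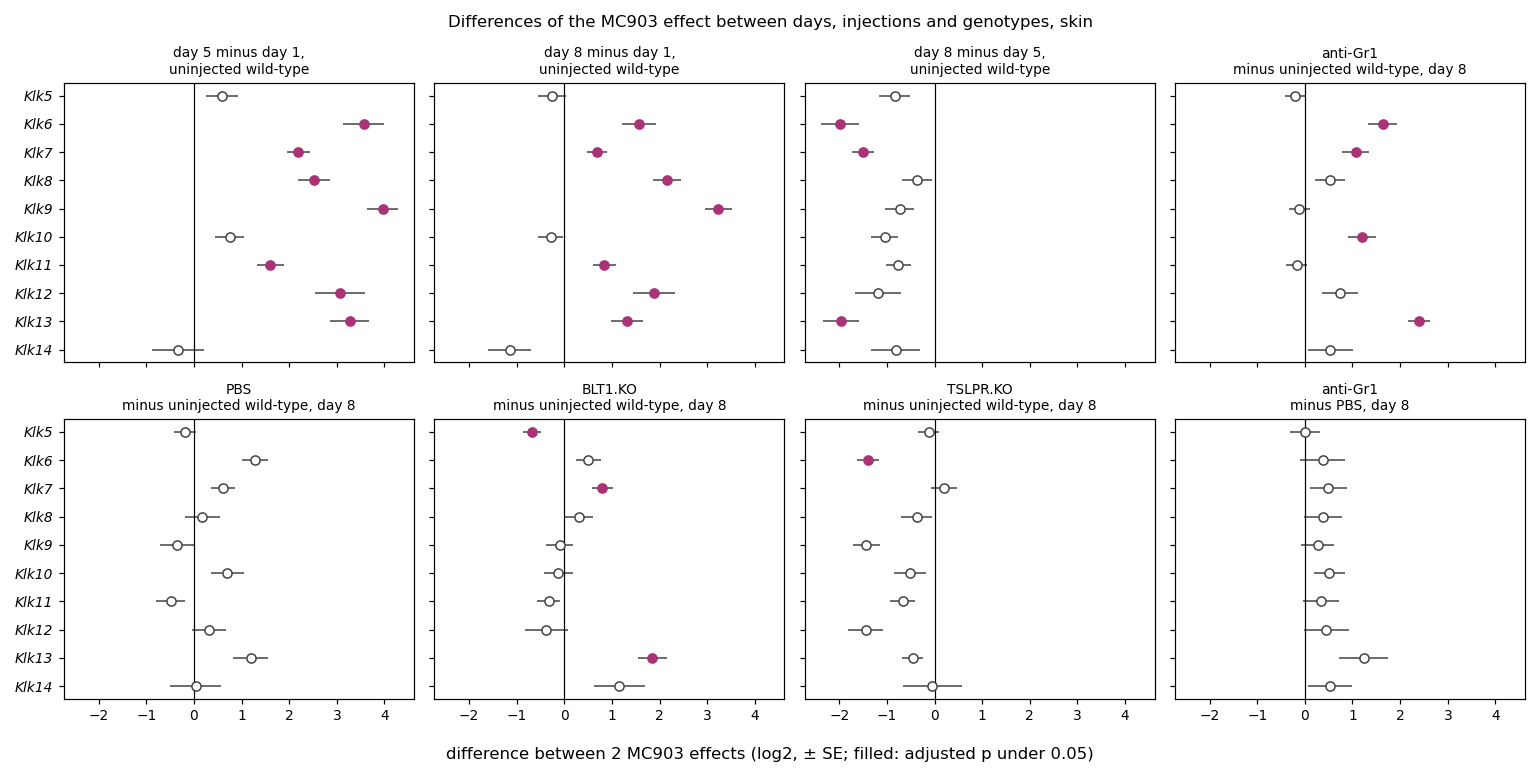
Difference between 2 MC903 effects in skin (log2, ± SE) for each kallikrein gene in 8 contrasts; filled points passed an adjusted p under 0.05. All 7 filled points of day 5 minus day 1 lie to the right of 0, Klk13 is the farthest right in the anti-Gr1 and BLT1.KO contrasts with uninjected mice, and Klk6 is the filled point left of 0 in the TSLPR.KO contrast.

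Of the members, 3 stood apart from the rest. Klk14 was called in none of the 9 skin comparisons (and in 2 of 8 day 1 fits that left out a library), at 0.356 to 3.28 CPM with log2 fold changes from -0.40 to 0.83 over them. Klk5, the trypsin-like enzyme known to activate Klk7, was called higher in no condition. At day 8 it was called lower in uninjected wild-type, anti-Gr1 and BLT1.KO mice (11.2%, 17.5% and 14.6% of all genes fell). With 1 library left out, the call was kept in 3 of 11 fits of uninjected and 2 of 8 of anti-Gr1 mice. At day 5 every MC903 library lay above every ethanol one, a rise that was not called. Klk10 was called higher at day 1, at day 5 and in anti-Gr1 mice, and ranged from -0.30 to 0.95 elsewhere. Over all 61 skin libraries, which share the treatments, Pearson's r of log2(CPM + 0.5) was 0.979 between Klk8 and Klk9 and 0.946 between Klk6 and Klk9, whereas Klk5 had r from -0.18 to 0.0099 with Klk6, Klk7, Klk8, Klk9, Klk11, Klk12 and Klk13.

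Genes outside the cluster encode inhibitors of kallikreins and further proteases, some of which can activate them. Of 5 proteases listed as candidate activators, none of which was tested for activation here, Prss27 (marapsin) rose in 8 of 9 skin comparisons. It rose by 3.53 ± 0.27 at day 5 and 2.13 ± 0.14 at day 8. St14 (matriptase) was called once, lower at day 8 (-0.71 ± 0.23), Prss8 (prostasin) was called nowhere (1.004 ± 0.28 at day 5), and the meprin genes Mep1a (0.237 CPM at most) and Mep1b were near 0. Of 8 inhibitors, 4 rose at day 5 and 3 at day 8, with 1 lower at day 8 (of all genes 8.15% and 12.2% rose, and 11.2% fell at day 8). Slpi, the secretory leukocyte protease inhibitor, rose by 6.996 ± 0.47 and 6.02 ± 0.42, and Spink12 by 6.35 ± 0.53 and 2.99 ± 0.46. Spink5, the LEKTI gene, rose by 2.01 ± 0.25 (mean CPM 680.1 with ethanol and 2822 with MC903) and 1.31 ± 0.14. At day 1 Spink5 was at -0.36 ± 0.11 and did not pass. Spint2 was called once, lower in anti-Gr1 skin (-0.86 ± 0.20).

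Of 5 corneodesmosome genes and the receptor, 2 rose at day 5, and at day 8 3 rose and 1 fell, beside the same shares of all genes. Cdsn, corneodesmosin, rose by 2.93 ± 0.22 at day 5 and 1.01 ± 0.18 at day 8, and Dsc1, desmocollin-1, by 1.69 ± 0.23 and 0.67 ± 0.14. Dsg1a and Dsg1b, close copies of desmoglein-1 whose reads may be shared, went opposite ways at day 8 (-0.43 ± 0.14 and 0.37 ± 0.12). F2rl1, the PAR2 gene, was called lower in anti-Gr1 (-0.76 ± 0.24) and BLT1.KO skin (-0.60 ± 0.11) and was at -0.52 ± 0.21 in uninjected mice at day 8 (adjusted p = 0.0938). Of the other 16 kallikrein genes of the cluster, Klk4 was called higher at day 5 (0 CPM in every ethanol library and a mean of 0.440 CPM with MC903), and 11 fell (6.78% of all genes fell). Those 11 are Klk1 and Klk1b genes, near-identical copies known from salivary gland whose reads may be shared, and the ethanol libraries of that day held salivary gland markers. At day 8 of uninjected mice, 5 of the 16 had enough counts to test, of which Klk4 rose (4.28 ± 0.80) and Klk15 fell (-2.20 ± 0.59).

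Markers of keratinocytes and of other cells moved beside the members. The stress keratins Krt6a, Krt6b, Krt16 and Krt17 all rose at day 5 and day 8, and Krt16 by 5.71 ± 0.53 and 4.47 ± 0.20. At day 1, when Klk13 and Klk6 were already higher, none of the 4 passed (Krt16 0.39 ± 0.26, Krt6b 0.12 ± 0.44). Of 6 markers of suprabasal layers, 4 fell at day 5 and 5 at day 8 (6.78% and 11.2% of all genes did), among them loricrin, Lor (-2.66 ± 0.30 and -3.16 ± 0.38), while Krt1 rose (0.94 ± 0.24 and 1.61 ± 0.24). The basal markers summed to 10414 to 20086 CPM with MC903 and 4869.9 to 6261 with ethanol at day 8, with 2 of 5 called higher and 1 lower. Hair follicle markers summed to 3556 to 19379 CPM with MC903 and 13082 to 61967 with ethanol, skeletal muscle markers to 1672 to 3192 and 3006 to 14179.8, and neutrophil markers to 25.6 to 61.8 and 7.22 to 12.96, at the same day. The part of these shifts in the kallikrein values was not tested.

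The genes whose level ran most like that of Klk6 over the 61 skin libraries were Serpina9 (r = 0.960), Sprr2a3 (0.958), Sprr1b (0.954), Chil1 (0.953) and 2610528A11Rik (0.952), with a median r of 0.0399 over 17639 genes. Within the 31 MC903 libraries the r of Serpina9 with Klk6 was 0.932, and within the 30 ethanol libraries 0.493. For Klk13 they were Lrat (0.970), which makes retinyl esters, Cdhr1 (0.965), Chil1 (0.962), Slc45a4 (0.957) and Serpina9 (0.955), with a median of 0.105. Lrat kept r = 0.887 within the ethanol libraries and 0.656 within the MC903 libraries.

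In the nervous system Klk6 was called lower with MC903 in spinal cord and was not called in trigeminal ganglion. In spinal cord of uninjected wild-type mice treated on the back, Klk6 was at 33.4, 50.8, 51.9, 59.3 and 59.4 CPM with ethanol and 14.7, 20.1, 23.9 and 35.5 with MC903. It fell by 1.10 ± 0.22 on the log2 scale (adjusted p = 0.00557; 7.14% of all genes fell), with 1 MC903 library inside the ethanol range. In anti-Gr1 mice it ranged from 117.7 to 142 (median 121.6) CPM in 6 ethanol libraries and from 33.7 to 68.3 (median 59.6) in 8 MC903 libraries, without overlap, and fell by 1.16 ± 0.12 (adjusted p = 2.88e-06; 6.79% of all genes fell). In PBS mice it was at 101 and 108 CPM with ethanol and 48.2 and 63.2 with MC903. The difference of -0.93 ± 0.18 did not pass (adjusted p = 0.325; 0% of all genes passed and 2 libraries a group were fitted), while DESeq2 (adjusted p = 0.00204) and the replicate block (0.00991) put it past the threshold. Ethanol levels of the uninjected mice lay below those of both injected groups, a difference that was not tested.

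Myelin genes were measured beside Klk6 in the cord. The oligodendrocyte markers that fell in both uninjected and anti-Gr1 mice included Opalin (-2.13 ± 0.15 and -1.39 ± 0.10), Mog (-1.02 ± 0.10 and -0.42 ± 0.07), Mag and Cnp. Mbp (-0.00 ± 0.09 and -0.11 ± 0.05) and Mobp did not pass, and none of 5 central neuron markers did. Klk8, which was looked at after its values were seen, was at 1.35, 1.52, 1.62, 2.10 and 4.14 CPM with ethanol and 0.361, 0.602, 0.647 and 0.830 with MC903 in uninjected cord. It fell by 1.83 ± 0.39 there (adjusted p = 0.00795) and by 0.80 ± 0.22 in anti-Gr1 cord (adjusted p = 0.0264), where the groups overlapped. These values rest on few reads, 11 to 141 counts in uninjected and 8 to 47 in anti-Gr1 libraries. In PBS cord Klk8 was at 0.590 and 0.958 CPM with ethanol and 0.235 and 0.402 with MC903. Reads on the exons it shares with 2310002F09Rik cannot be told apart.

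In trigeminal ganglion Klk6 passed in none of 8 comparisons (of all genes 0% did at day 1, day 2 and TSLPR.KO day 8, 0.00823% at day 5, 0.16% at day 8, 1.88% in anti-Gr1, 3.36% in PBS and 0.304% in TSLPR.KO day 12). Its level ran from 0 to 34.8 CPM over the 56 libraries. The highest was 34.8 CPM in MC903 replicate 1 of day 1, followed by 27.99 and 23.9 CPM in the ethanol and MC903 replicates 2 of TSLPR.KO day 12 and by 20.2 CPM in MC903 replicate 2 of day 1. Both of those day 1 libraries had the highest levels of the myelin gene Mog in that tissue, 120.9 and 149 CPM. The other MC903 libraries of day 1 held 5.60 and 7.19 CPM of Klk6 and the ethanol libraries 0.330, 4.10, 7.28 and 0.526, which overlap (2.38 ± 0.89, adjusted p = 0.574). At day 8 of uninjected mice the highest library was 4.74 CPM (0.62 ± 1.06). In TSLPR.KO mice at day 8 Klk6 was at 1.11 and 2.83 CPM with ethanol and 0.194 and 0.775 with MC903. These groups did not overlap, and the difference was not called (-1.92 ± 0.88, adjusted p = 0.614). MC903 replicate 1 of day 1 also held 3623 CPM of salivary gland, 1137 of hair follicle and 221 of suprabasal keratinocyte markers, where the other 7 libraries of that day held at most 710.4, 179 and 45.2. The part of the myelin and of these markers in the Klk6 values was not tested.

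**Figure D5:**
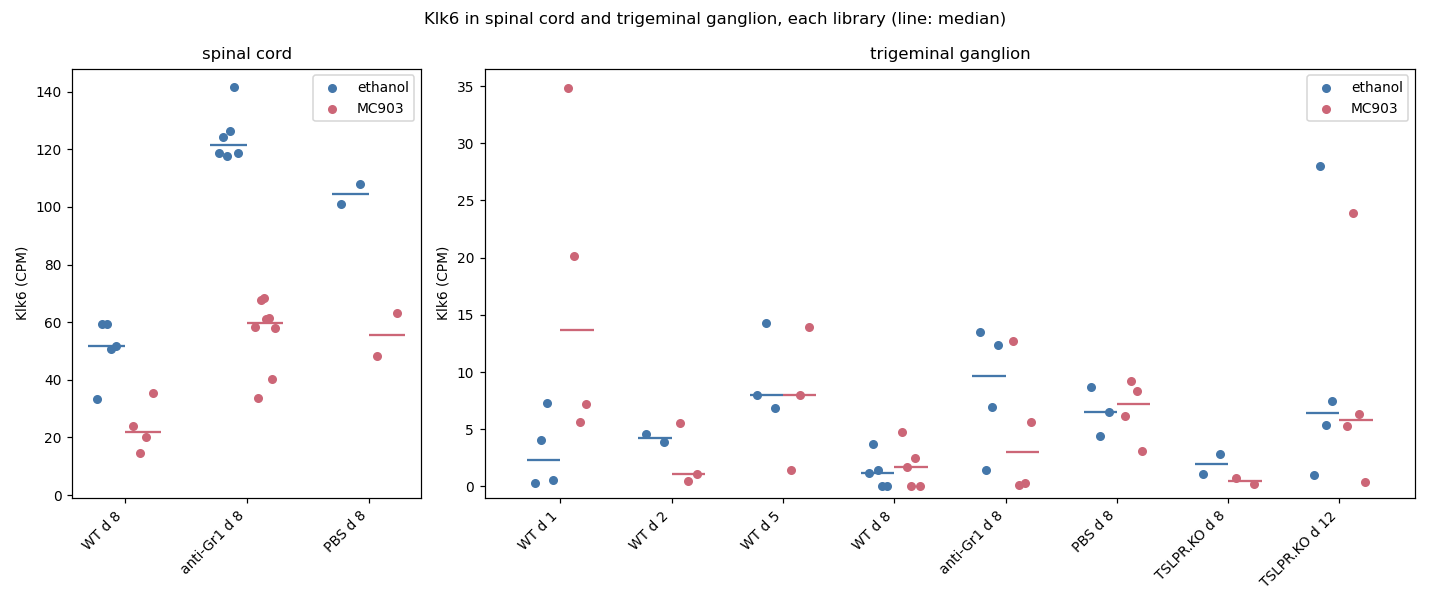
Klk6 level (CPM) in each spinal cord library (left) and trigeminal ganglion library (right), ethanol blue and MC903 red, with medians as short lines. In cord the red points sit below the blue ones apart from 1 library of uninjected mice. In ganglion they mix apart from TSLPR.KO day 8, where the red points lie below the blue ones, and the highest point is at day 1.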

How the data were processed

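RNA was sequenced as poly(A)-selected, single-end libraries with reads of 50 bases. The deposited files hold raw counts of reads per Ensembl gene, which the authors made, per the submitters' processing notes, with TopHat2, Bowtie2 and HTSeq on mm10. The paper lists versions of HTSeq and TopHat. The Bowtie2 version and the strand setting are not given in the sources used here. Each file lists 46078 genes and 5 tally lines, which were left out (reads on no feature were 7.57 to 18.3% in skin). Symbols came from GENCODE M21 for 45229 IDs, and 849 had none.

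Members and gene lists were chosen with earlier results of these data known, so no list is independent support. Groups came from the labels. Genes with at least 10 counts in total were fitted per comparison with edgeR 4.0.16 (TMM, quasi-likelihood F-test, R 4.3.3) and Benjamini-Hochberg adjustment over all genes, with thresholds of 0.05 in skin and spinal cord and 0.1 in ganglion. Day 8 uninjected wild-type fits had a term for the cohort. Levels are plain CPM, each ± after a fold change is its SE, and correlations used log2(CPM + 0.5). Named genes are the 10 members, the genes of fixed lists and the 5 genes most correlated with Klk6 and with Klk13. Alternatives were RLE scaling, DESeq2 1.42.0, other filters, a replicate block, each cohort alone and leaving out libraries. Library totals without TMM, a crossed block and leaving out libraries with salivary gland RNA were added after seeing the data. A plain edgeR comparison was run on counts simulated from uninjected wild-type skin. That run did not cover the cohort term, the differences of effect or the other scripts. Samples were counted as paired where every same-numbered pair had a correlation over 0.1. In ganglion that held at day 5 (0.16 to 0.36) and in TSLPR.KO day 12 (0.23 to 0.63). The labels give no pairing, and differently numbered libraries were not compared, so the rule does not show that samples were paired. The block did not change the calls of Klk6 in these ganglion groups. The result of 1 gene of the oligodendrocyte list is not reported here.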

Additional observations from a re-analysis of the deposited data

Results flagged for a closer look

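Single libraries stood apart from the rest of their group in 8 of 83 sets of values tested (1 gene in 1 group each), and chance marks about 1 such set in 20. Of these, 5 were the same library, ethanol replicate 3 of anti-Gr1 skin, which was high for Klk6 (30 CPM), Klk8 (40.8), Klk9 (15.6), Klk10 (108) and Klk11 (25.3). Its salivary gland markers summed to 39361 CPM, the lowest of the 4 ethanol libraries, and their part was not tested. MC903 replicate 1 of anti-Gr1 skin was high for Klk14 (2.01 CPM), and MC903 replicate 1 of TSLPR.KO day 12 skin was low for Klk5 (63.6 CPM). In anti-Gr1 spinal cord, ethanol replicate 5 was high for Klk6 (142 CPM).

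The MC903 effect differed between days in a test of the difference itself. From day 1 to day 5 the log2 effect grew by 3.56 for Klk6, 2.19 for Klk7, 2.53 for Klk8, 3.96 for Klk9, 1.61 for Klk11, 3.07 for Klk12 and 3.27 for Klk13. From day 1 to day 8 it grew by 1.57 for Klk6, 0.69 for Klk7, 2.16 for Klk8, 3.23 for Klk9, 0.84 for Klk11, 1.88 for Klk12 and 1.31 for Klk13. From day 5 to day 8 it changed by -1.99 for Klk6, -1.50 for Klk7 and -1.96 for Klk13. The ethanol libraries of day 5 held over 1000 CPM of salivary gland markers and those of day 8 did not. Their part was not tested.

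The effect also differed by injection or genotype at day 8. Relative to uninjected wild-type skin the log2 difference in anti-Gr1 skin was 1.63 for Klk6, 1.07 for Klk7, 1.19 for Klk10 and 2.39 for Klk13. In BLT1.KO skin it was -0.68 for Klk5, 0.80 for Klk7 and 1.85 for Klk13, and in TSLPR.KO skin -1.40 for Klk6. Against PBS-injected mice the effect in anti-Gr1 skin was called different for 0 of 10 members. With cohort B alone 1 member was called in the anti-Gr1 contrast, 2 in BLT1.KO and 0 in TSLPR.KO. All 4 ethanol libraries of anti-Gr1 skin held over 1000 CPM of salivary gland markers, and 0 of 6 of uninjected day 8 skin did. Their part was not tested. The contrasts with uninjected skin share its libraries, and injection or genotype cannot be told apart from library preparation in them.

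Wild-type day 12 libraries, used in no comparison, held Klk6 at up to 1466 CPM in a library labelled ethanol skin, where the highest ethanol skin library used held 79.1 CPM. A library labelled MC903 ganglion held 1592 CPM, where the highest ganglion library used held 34.8 CPM. Other genes did not match these labels. The first library held Cyp24a1 at 5258 CPM, where skin libraries used held at most 31.4 with ethanol and 1657 to 6748 with MC903. The second held Krt1 at 6064 CPM and the neuron marker Snap25 at 0.239. Ganglion libraries used held at most 18.2 CPM of Krt1 and at least 704 of Snap25. The 2 Klk6 values are therefore not values of ethanol skin or ganglion as labelled.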

How the results depend on the processing

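Of 850 values recomputed under other settings, 778 kept their direction and side of the threshold, 37 lost the call, 20 gained one and 15 reversed. Of 610 values with 1 library left out the numbers were 558, 38, 5 and 9. The causes were not tested unless the setting itself gives one (fewer libraries).

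In day 1 skin 4 members were called with library totals (986 of 24749 genes in all). Without the libraries that held salivary gland RNA 3 were (743 of 23910 genes). Leaving out such libraries could not be done for day 5, anti-Gr1 and TSLPR.KO day 12, which keep no ethanol library. In day 2 skin 1 member was called with no filter (27 of 29650 genes in all), 7 with DESeq2 (279 of 24580) and 7 with the replicate block (876 of 24580). Klk6 in spinal cord, PBS wild-type day 8 was -0.93 with DESeq2 (adjusted p = 0.00204) and -0.95 with the replicate block (0.00991), where same-numbered libraries share only a number. Same-numbered libraries deviated in opposite directions there, and the crossed pairing, added after seeing the data, gave -0.95. The block changed no other count of members by over 1.5 times. With cohort B alone, 2 members changed their effect from day 1 to day 8, 0 from day 5 to day 8, 1 in anti-Gr1 and 0 in TSLPR.KO skin, and with library totals 2 did in TSLPR.KO skin.

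Signs turned for values that had not passed. Klk10 was 0.32 at day 2 without salivary libraries, -0.17 at day 8 in cohort A and -0.10 in TSLPR.KO day 12 with the replicate block, and Klk14 was 0.0689 at day 2 with library totals. Among differences of effect with cohort B alone, Klk10 was 0.16 (day 8 minus day 1), Klk9 0.16 (anti-Gr1) and 0.21 (BLT1.KO), Klk14 -0.0408 (PBS) and Klk8 0.15 (TSLPR.KO). With library totals Klk5 was 0.11, Klk9 0.22 and Klk11 0.15 in anti-Gr1, Klk5 0.32 in anti-Gr1 minus PBS and Klk7 0.18 in TSLPR.KO day 12 minus day 8 (0.0304 with RLE).

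With 1 library left out, 0 to 1 members were called at day 2 2 to 7 in PBS skin (2 without ethanol replicate 1) and 4 to 5 in TSLPR.KO day 8 skin (6 with every library; Klk7 in none of the 5). Klk10 ran from -0.47 to 0.41 at day 2, -0.0752 to 0.24 in BLT1.KO and -0.0808 to 0.44 in TSLPR.KO day 12. Klk14 ran from -0.28 to 0.16 at day 2, -0.52 to 0.0539 at day 8 and -0.998 to 0.60 in TSLPR.KO day 8. Klk6 in ganglion ran from -0.98 to 0.22 at day 5, -1.08 to 1.80 at day 8, -0.18 to 0.29 in PBS and -1.34 to 1.003 in TSLPR.KO day 12. Klk6 in PBS cord ran from -1.19 to -0.71. Klk14 and Klk12 rest on few counts, groups of 2 limit day 2, PBS and TSLPR.KO day 8, and intervals of counting error are not given.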
